A study of Rattus norvegicus with 8 samples.

Results

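Blood vessels draw in white blood cells through a short chain of molecules, and the genes described here are the core of that chain. Tumour necrosis factor (Tnf) and the interleukins Il1b and Il6 are the signals. The transcription factor NF-kappa-B, made of subunits such as those encoded by Rela and Nfkb1, carries the Tnf and Il1b signals to the nucleus, where it switches on Vcam1, Icam1, Sele and Selp, whose products hold leukocytes on the vessel wall, and also its own inhibitor Nfkbia (I-kappa-B alpha), which takes it out of the nucleus again. In the aorta this circuit is best known from endothelial cells in diabetes and early atherosclerosis. The members were chosen by name: 10 gene names, which are 11 of the 19238 genes in the table because Tnf is listed under 2 Ensembl identifiers. Of these, 9 genes had enough counts to be tested, and Il6 and the second Tnf entry did not.

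The samples were thoracic aortas of rats aged 7 to 8 weeks. The control group was of the Wistar strain and the other group was of the Goto-Kakizaki strain (GK, a non-obese strain with inherited diabetes bred from Wistar rats), labelled as diabetic macroangiopathy. The labels give no treatment. Every GK rat counts as diabetic and no Wistar rat does, so strain and disease cannot be told apart. Each group had 4 RNA libraries numbered 7 to 10, and nothing beyond the titles says that they are separate animals, so p-values measure the spread between these libraries only. Total counts per library ran from 11760397 to 16266151, and mitochondrially encoded genes took 8.27% (control 9) to 31.6% (GK 10) of them.

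Whole aorta holds many cell types. Summed CPM (counts scaled to one common library size, with edgeR's TMM factors) of 11 endothelial markers were 733 to 1151 in controls and 1153 to 1397 in GK, and 3 of the 11 rose. Of the 11, 7 lay higher and 4 lower in GK, and without Kdr and Nos3 the sums of the other 9 overlapped (599 to 988 in controls, 753 to 1043 in GK). Sums of the 6 general adipocyte markers were 5041 to 8129 in controls and 9054 to 22560 in GK. Lpl made up much of this, with means of 2875 CPM in controls and 10060 in GK. Of the 6, 2 rose (Lpl and Cidec), and Lep alone had a lower mean in GK (26.7 against 101 CPM). Smooth muscle marker sums were 5150 to 13570 against 2803 to 7317, fibroblast sums 3149 to 6736 against 924 to 3300, and macrophage sums 456 to 1165 against 309 to 512. In GK 9 skeletal muscle markers summed to 15090 CPM, against 205 or less in every other library. No marker was at 0 in all libraries, and the part of these cell types in the results below was not tested. In such bulk tissue, fewer cells of a type and less RNA per cell cannot be told apart.

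NF-kappa-B binds DNA at an element called the kappa-B site. Promoters of 300 bases (250 before to 50 after the gene start, RefSeq, build GRCr8) were at hand for 9 of the 10 names, Selp being the one without an entry, and were searched on both strands for the 10-base kappa-B consensus. It was found in 4 of the 9, against 4.18% of 33469 rat promoters of the same length. The members were chosen as genes of the NF-kappa-B circuit, so a higher share among them is no independent result. The 30-base windows are shown because they let the element be compared between the inhibitor, a subunit, an adhesion molecule and a cytokine. They lie on the minus strand at chr2:206742857-206742886, chr6:78597084-78597113, chr2:226805440-226805469 and chr4:5894624-5894653. Capitals mark the match, and each is written along its own gene, 5′ to 3′.
Vcam1: tccccttgaaGGGATTTCCCtccgcctctc
Nfkbia: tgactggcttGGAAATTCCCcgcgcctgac
Nfkb1: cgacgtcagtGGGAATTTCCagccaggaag
Il6: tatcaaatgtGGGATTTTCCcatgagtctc
The match began 93 bases before the start of Vcam1, 31 before that of Nfkbia, 68 before that of Il6 and 3 bases after the start base of Nfkb1. That of Vcam1 was read on both strands and that of Nfkbia on the opposite strand alone. The windows of Icam1, Sele, Rela, Il1b and Tnf did not hold these letters, which says nothing about binding there.

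For Nfkbia, the member that rose, and Vcam1, the adhesion gene with the highest CPM, the whole promoters are given, on the minus strand of chr6:78597023-78597322 and chr2:206742734-206743033 (GRCr8), with the match in capitals.
Nfkbia: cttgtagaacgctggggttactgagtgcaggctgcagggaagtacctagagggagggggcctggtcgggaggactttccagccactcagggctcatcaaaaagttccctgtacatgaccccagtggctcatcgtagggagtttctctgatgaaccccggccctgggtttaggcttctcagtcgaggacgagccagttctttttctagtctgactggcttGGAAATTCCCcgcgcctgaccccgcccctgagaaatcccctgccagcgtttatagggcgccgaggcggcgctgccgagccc
Vcam1: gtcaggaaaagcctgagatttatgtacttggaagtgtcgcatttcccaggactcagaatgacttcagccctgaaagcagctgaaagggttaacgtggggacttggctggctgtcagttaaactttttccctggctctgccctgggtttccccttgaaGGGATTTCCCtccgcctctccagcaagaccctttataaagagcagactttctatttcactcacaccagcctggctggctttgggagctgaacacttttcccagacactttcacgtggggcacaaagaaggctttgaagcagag

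The levels of the 10 genes differed widely in the aorta of both strains. Per length, as FPKM (fragments scaled by gene length and library size, the authors' deposited values), the order by the median of the 8 libraries was led by the NF-kappa-B genes: Nfkbia at 53.9, Rela at 31.5 and Nfkb1 at 17.8 FPKM. In every library Nfkbia was above Rela and Rela above Nfkb1. Icam1 (median 5.66 FPKM) and Vcam1 (4.48) came next, and these neighbours did not differ beyond their spread, from 3.93 to 13.8 FPKM for Icam1 and from 2.77 to 13.7 for Vcam1. Selp followed with a median of 2.0 FPKM. The cytokines and Sele lay at the bottom, with medians of 1.17 for Il1b, 0.665 for the first Tnf entry, 0.192 for the second, 0.168 for Sele and 0.0713 for Il6. The ranges of neighbours in this order overlapped, except at these places. Nfkb1 (15.15 to 23.89 FPKM) lay above Icam1 throughout. The second Tnf entry (0 to 0.355 FPKM) lay below the first (0.405 to 1.38) throughout. The transcription factor and its inhibitor were thus read from many fragments, and the cytokines from few.

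**Figure D1:**
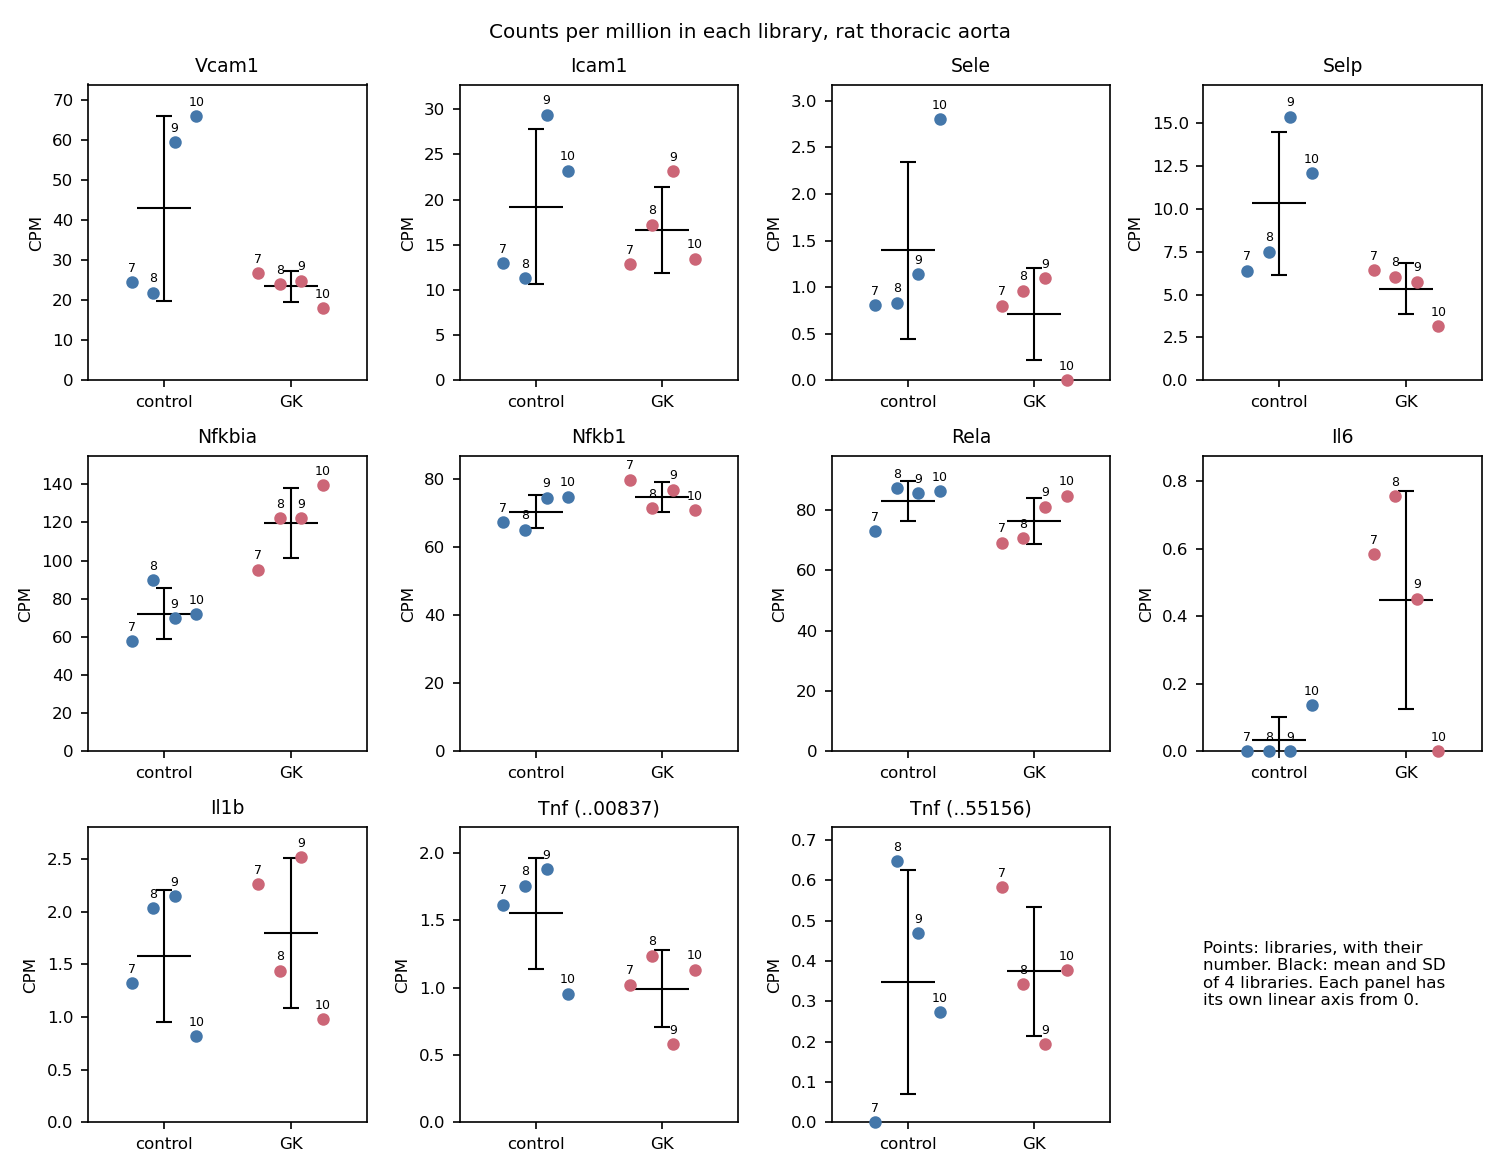
CPM (y axis, linear from 0, its own scale in each panel) of each gene in the 4 control and 4 GK libraries, with library numbers beside the points and the mean and SD in black. Nfkbia is the gene whose GK points, 95.2 to 139 CPM, all lie above the control points, 57.8 to 89.7, and controls 9 and 10 stand above the other libraries for Vcam1 and Selp.

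Nfkbia was higher in GK and the other NF-kappa-B members were not called. Nfkbia (ENSRNOG00000007390; chromosome 6, 76267228 to 76270457 in the files' coordinates, for which no build is named) encodes the inhibitor that holds NF-kappa-B in the cytoplasm. It stood at 57.8, 89.7, 69.7 and 71.9 CPM (controls 7 to 10) against 95.2, 122, 122 and 139 CPM (GK 7 to 10). The lowest GK library lay above the highest control, so the groups did not overlap. Its log2 fold change (GK over control throughout) was 0.73 ± 0.17 (SE, n = 4 per group; 95% interval 0.34 to 1.12; edgeR quasi-likelihood test, Benjamini-Hochberg adjusted p = 0.0423). It was the 1 called member of 9 tested, where 7.28% of all 13673 tested genes were called (3.96% higher and 3.31% lower in GK), and the 1 of 9 whose groups did not overlap, where 15.6% of tested genes did not. At an unadjusted p under 0.05 there were 3 of 9 members against 27.6% of all genes, and so none of these shares sets the members apart from the table.

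The call of Nfkbia lay near the threshold, while its size moved little. Under 15 other settings the log2 fold change ran from 0.58 to 0.85, above 0 in each, and 6 of the 15 kept it called. It was no longer called without control 7 (adjusted p = 0.0795), control 9 (0.0975), control 10 (0.127), GK 7 (0.0679), GK 8 (0.121) or GK 10 (0.104), nor without both libraries numbered 9 (0.0562), with no filter on low counts (0.0555) or with library totals alone as scaling (0.141). In the authors' deposited table Nfkbia had a q-value of 0.0953 and was not called.

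**Figure D2:**
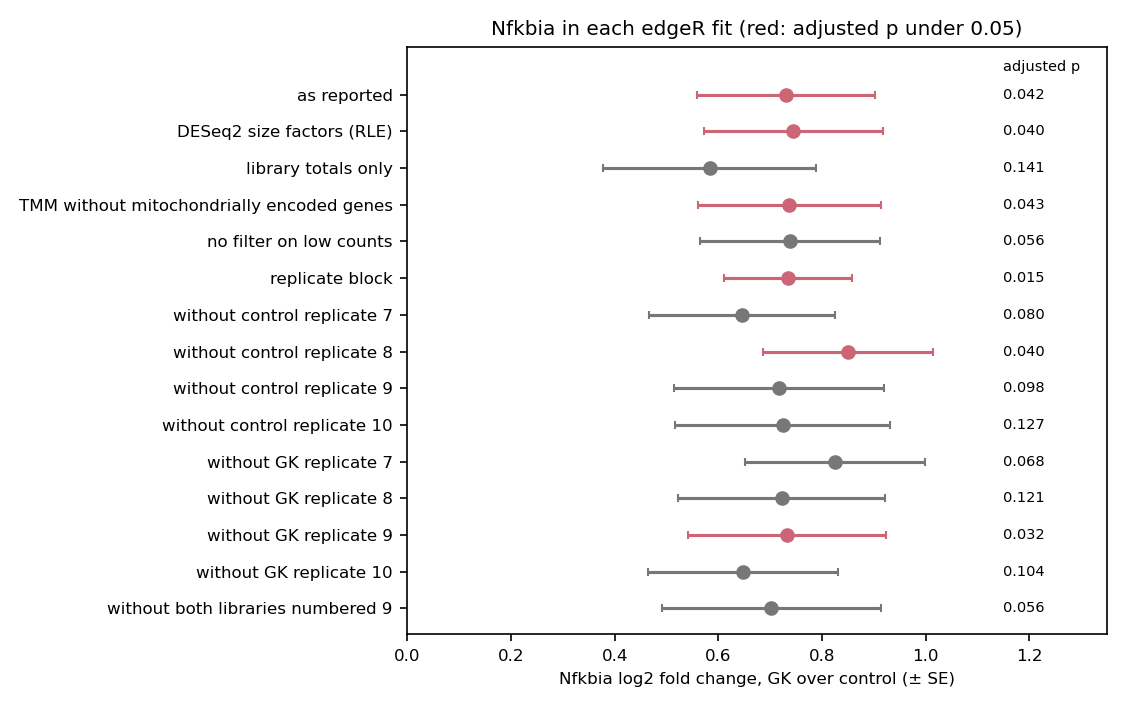
Log2 fold change of Nfkbia, GK over control, with its SE (x axis) in the fit as reported and in each alternative edgeR fit (y axis), with the adjusted p at the right and red for an adjusted p under 0.05. All points lie between 0.58 and 0.85, and the adjusted p runs from 0.0153 to 0.141.

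The subunits were nearly level between the strains. Rela (ENSRNOG00000030888; chromosome 1, 220992770 to 221003249), the p65 subunit that carries the activation domain, stood at 73.0, 87.2, 85.6 and 86.3 CPM (controls 7 to 10) against 69.2, 70.6, 81.0 and 84.8 (GK 7 to 10). The log2 fold change was -0.12 ± 0.12, with a 95% interval of -0.39 to 0.15 (edgeR adjusted p = 0.544). Nfkb1 (ENSRNOG00000023258; chromosome 2, 240773456 to 240866689), the gene of p105 and p50, stood at 67.3, 65.2, 74.6 and 74.8 CPM (controls 7 to 10) against 79.8, 71.5, 76.8 and 70.9 (GK 7 to 10). For Nfkb1 the log2 fold change was 0.08 ± 0.11, with an interval of -0.15 to 0.32 (edgeR adjusted p = 0.629), and it was -0.08 with library totals alone as scaling. The groups overlapped for both genes, and with TMM factors both intervals leave out a change as large as 1.5-fold. For Rela that depended on the scaling: with library totals alone its log2 fold change was -0.28 ± 0.19 (edgeR adjusted p = 0.4).

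Adhesion molecules were lower in the GK mean, and none passed the test. Vcam1 (ENSRNOG00000014333; chromosome 2, 219071193 to 219097619), the ligand of integrin alpha-4 beta-1 on monocytes and lymphocytes, stood at 24.4, 21.8, 59.5 and 65.9 CPM (controls 7 to 10) against 26.8, 24.0, 24.9 and 18.0 CPM (GK 7 to 10). Controls 9 and 10 were more than double any GK library, while controls 7 and 8 lay among the GK values. Its log2 fold change was -0.87 ± 0.37 (95% interval -1.72 to -0.03; edgeR adjusted p = 0.168). Fibroblast marker sums were also higher in controls 9 and 10 (6601 and 6736 CPM) than in controls 7 and 8 (4027 and 3149), and their part in the Vcam1 levels was not tested.

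Selp (ENSRNOG00000002794; chromosome 13, 82429063 to 82464628), the gene of P-selectin, which endothelium and platelets store and release to start leukocyte rolling, was likewise highest in controls 9 and 10. It stood at 6.39, 7.49, 15.4 and 12.1 CPM (controls 7 to 10) against 6.42, 6.04, 5.74 and 3.17 CPM (GK 7 to 10). Only control 7 lay within the GK range. That gave a log2 fold change of -0.95 ± 0.34, with a 95% interval of -1.72 to -0.18 (edgeR adjusted p = 0.116). Platelet marker sums were 84 and 85 CPM in controls 8 and 9 and 37 CPM or less in the other libraries, and their part in the Selp levels was not tested.

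Icam1 (ENSRNOG00000020679; chromosome 8, 22035256 to 22047059), the ligand of the beta-2 integrins, was less uneven. It stood at 13.0, 11.3, 29.4 and 23.2 CPM (controls 7 to 10) against 12.8, 17.2, 23.2 and 13.4 CPM (GK 7 to 10), so the groups overlapped. Its log2 fold change was -0.21 ± 0.33, with a 95% interval of -0.97 to 0.56 (edgeR adjusted p = 0.715), and it was 0.08 without control 9. Sele (ENSRNOG00000002723; chromosome 13, 82355471 to 82365341), the gene of E-selectin, which activated endothelium makes, was near the limit of detection with 9 to 41 counts in controls and 0 to 17 in GK. It stood at 0.807, 0.832, 1.14 and 2.80 CPM (controls 7 to 10) against 0.803, 0.961, 1.10 and 0 CPM (GK 7 to 10). Its log2 fold change of -0.95 ± 0.78 had an interval of -2.72 to 0.81 (edgeR adjusted p = 0.451), and it was -0.37 without control 10 and -0.55 without GK 10, so a difference was not detectable at this depth.

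**Figure D3:**
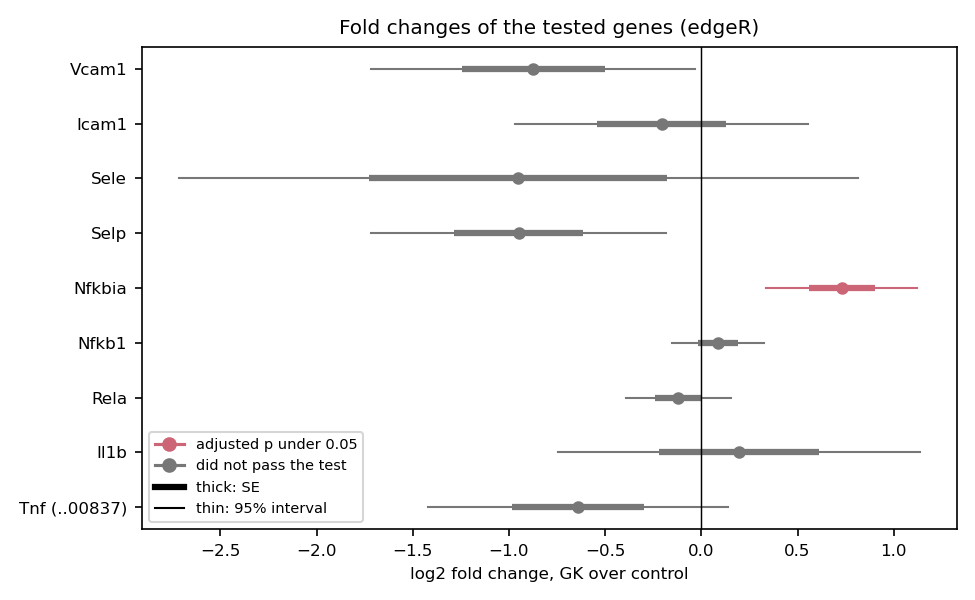
Log2 fold change (x axis, GK over control) of the 9 tested genes, with the SE as a thick bar and the 95% interval as a thin bar; n = 4 libraries per group. Nfkbia is the red point at 0.73, and Vcam1 and Selp, in grey, lie at -0.87 and -0.95 with intervals that end just below 0.

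Endothelium makes all 4 of these adhesion molecules, and each was also set against the endothelial marker counts of its own library (7925 to 20854 counts). Vcam1 then stood at 23.3, 29.8, 51.6 and 66.3 counts per 1000 endothelial marker counts in controls 7 to 10 and at 19.2, 20.1, 18.5 and 15.6 (GK 7 to 10). Every GK library lay below every control. The difference of mean log2 ratios, GK minus control, was -1.10, with p = 0.0286 in a two-sided exact permutation test, the smallest that 4 against 4 libraries allow, and p = 0.0572 adjusted over the 4 genes so compared.

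Selp stood at 6.09, 10.2, 13.3 and 12.1 per 1000 in controls and 4.6, 5.05, 4.27 and 2.75 in GK. The groups did not overlap, and the difference was -1.30 (exact permutation p = 0.0286, adjusted p = 0.0572). For Icam1 the difference was -0.52 (exact permutation p = 0.171) and for Sele -1.92 (p = 0.0857), both with overlapping groups, and the Sele value includes the 0 counts of GK 10, without which it was -0.79. None of the 4 passed the adjusted threshold. With Vcam1 and Selp alone at the smallest p that these libraries allow, neither could pass after adjustment. For these 2 genes the adjusted result therefore decides nothing. The separation depended on the markers used: Kdr, the receptor of vascular endothelial growth factor, and Nos3, the endothelial nitric oxide synthase, are 2 of the markers that rose. Without them the difference was -0.80 for Vcam1 (exact permutation p = 0.0857) and -1.0 for Selp (p = 0.0571), and the groups overlapped for both.

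**Figure D4:**
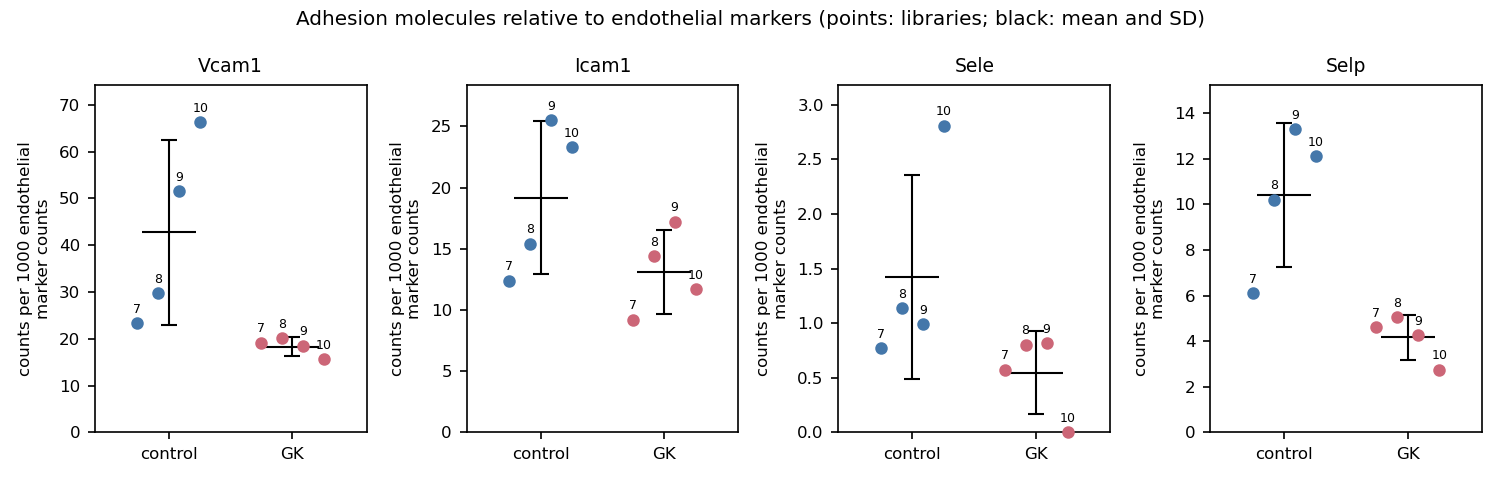
Counts of Vcam1, Icam1, Sele and Selp per 1000 endothelial marker counts (y axis, linear from 0) in each control and GK library, with library numbers and the mean and SD in black. For Vcam1 and Selp all GK points, up to 20.1 and 5.05, lie below all control points, from 23.3 and 6.09 upward.

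The cytokines were barely detected, and none was called. Il1b (ENSRNOG00000004649; chromosome 3, 121876263 to 121882726), the main inflammasome product, stood at 1.32, 2.03, 2.15 and 0.819 CPM (controls 7 to 10) against 2.26, 1.44, 2.52 and 0.982 CPM (GK 7 to 10). The log2 fold change of Il1b was 0.19 ± 0.41 (95% interval -0.75 to 1.14; edgeR adjusted p = 0.784), and the sign turned without control 10 (-0.03). The first Tnf entry (ENSRNOG00000000837) stood at 1.61, 1.76, 1.88 and 0.955 CPM (controls 7 to 10) against 1.02, 1.24, 0.581 and 1.13 CPM (GK 7 to 10). Control 10 lay within the GK range, and the other controls above it. The log2 fold change was -0.64 ± 0.34, with an interval of -1.42 to 0.14 (edgeR adjusted p = 0.262).

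The second Tnf entry (ENSRNOG00000055156) lies on the same chromosome 20, at 5189390 to 5192000 against 4855829 to 4858447, and had 18 counts in all controls and 21 in all GK libraries. How reads were shared between the 2 entries is uncertain, so neither count is a firm value for Tnf. Il6 (ENSRNOG00000010278; chromosome 4, 3043231 to 3047807), an inducer of the acute-phase response, had 0, 0, 0 and 2 counts in controls 7 to 10 and 8, 11, 7 and 0 (GK 7 to 10). The 3 GK libraries with counts lay above every control, and GK 10 had none. The ratio of these summed counts, each divided by the summed TMM-scaled library sizes of its group, was 12.3 with a 95% counting interval of 3.08 to 107, which covers counting error only. With no filter on low counts edgeR gave Il6 an adjusted p of 0.168, which did not pass, and the authors' deposited table gave a q-value of 0.103.

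Few other genes of the NF-kappa-B pathway passed the test. Of 86 tested genes in 8 lists of the pathway, 1 rose and 1 fell, 2.33% against 7.28% of all tested genes, and their median log2 fold change was -0.19 against 0.00 for all genes. At an unadjusted p under 0.05 there were 24 of the 86 by edgeR, against 27.6% of all genes. That is about the same share, so at this threshold the lists do not stand apart from the table. No test of the lists as sets was run. DESeq2 called 10 of the 86, against 2489 of all 13673. Without both libraries numbered 9 (GK 9 had the muscle RNA and control 9 the lowest mitochondrial share) 6 of the 86 rose and 10 fell by edgeR. Without GK 9 alone 6 rose and 14 fell, and without control 10, GK 8 or GK 10 none was called. These counts moved with those of the whole table. There, 2534 of 13584 tested genes were called without both libraries numbered 9, and 3046 of 13775 without GK 9. Only 135 genes were called without control 10, 180 without GK 8 and 294 without GK 10.

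Among the other subunits and inhibitors none of 7 genes passed edgeR's test, with 3 at an unadjusted p under 0.05 and 1 called by DESeq2. Nfkb2, the p100 subunit, was slightly lower in every GK library (18.6 ± 1.36 CPM, SD, against 22.4 ± 1.48 in controls; log2 fold change -0.27 ± 0.12, edgeR adjusted p = 0.174). Nfkbib, the inhibitor I-kappa-B beta, was at 54.2 ± 18.9 CPM in GK and 32.4 ± 11.5 in controls (0.74 ± 0.33, adjusted p = 0.184 by edgeR). It thus had a fold change close to that of Nfkbia with a wider spread, and it was called without GK 9 (0.96, edgeR adjusted p = 0.0440).

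Upstream kinases and adaptors gave 0 of 17 by edgeR, with 3 at an unadjusted p under 0.05 and 1 by DESeq2. The most abundant were the kinase Irak1, with means of 143 ± 34.7 (control) and 184 ± 52.9 CPM (GK), and the adaptor Tab2, at 104 ± 11.1 and 101 ± 3.46. Cytokine and toll-like receptors gave 0 of 10 by edgeR (2 at an unadjusted p under 0.05, 1 by DESeq2), with a median of -0.40. Control and GK means were 94.1 ± 10.2 and 110 ± 11.7 CPM for the Tnf receptor gene Tnfrsf1a, and 286 ± 73.8 and 240.0 ± 27.7 CPM for Il6st, the shared receptor chain of the Il6 family. Cytokine processing and signal transducers gave 0 of 10 by edgeR (2 at an unadjusted p under 0.05, 1 by DESeq2), with the kinase Jak1 at 241 ± 24.8 and 253 ± 12.8 CPM and the transcription factor Stat3 at 133 ± 22.9 and 134 ± 14.5.

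The next list held the genes that leukocytes use to bind the adhesion molecules. Of 11 tested, 10 lay below 0 with a median log2 fold change of -0.50. None passed edgeR's test (5 at an unadjusted p under 0.05 against 27.6% of all genes, 3 by DESeq2 against 2489 of all 13673). The most abundant of them are not confined to leukocytes: Itgb1, the integrin beta-1 chain, had means of 638 ± 178 (control) and 473 ± 29.8 CPM (GK), and Glg1, a Golgi protein that can bind E-selectin, at 254 ± 40.0 and 179 ± 39.3 (-0.50 ± 0.19, edgeR adjusted p = 0.137; called without GK 9, -0.65 and 0.0234). Macrophage marker sums tended lower in GK too, with overlap, as given above. Of 9 markers 1 was called lower, and Cd68 had a higher mean in GK. Neutrophil marker sums were higher, 25.9 to 165 CPM in controls and 241 to 312 in GK. Mpo carried this (72.9 ± 53.6 against 282 ± 32.3 CPM), while S100a8, S100a9, Csf3r, Cxcr2 and Elane had lower means in GK. No neutrophil marker was called, and the part of these cells in the values above was not tested.

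The 2 calls among the pathway lists were in genes with other known roles as well. In the list of negative feedback on NF-kappa-B, 1 of 9 genes rose, Nlrc5, from 12.8 ± 1.61 to 25.6 ± 6.09 CPM (1.0 ± 0.19, edgeR adjusted p = 0.0240), with no overlap of the groups. Nlrc5 is best known as the transactivator of class I genes of the major histocompatibility complex. Among the other adhesion molecules of the vessel wall 1 of 10 fell, Cd34, a sialomucin of endothelium, fibroblasts and progenitor cells, from 140 ± 33.1 to 77.5 ± 9.17 CPM (-0.85 ± 0.20, edgeR adjusted p = 0.0404). Nlrc5 lost its call without control 8, control 9, control 10, GK 8 and GK 10, and Cd34 without every library but control 8 and GK 9.

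Other NF-kappa-B response genes gave 0 of 12 by edgeR (3 at an unadjusted p under 0.05, 0 by DESeq2) and a median of 0.00. Sod2, the mitochondrial superoxide dismutase, stood at 295, 311, 111 and 215 CPM (controls 7 to 10) against 556, 529, 204 and 541 CPM (GK 7 to 10). In both groups the library numbered 9 was the lowest, and the log2 fold change of Sod2 was 0.97 ± 0.40 (edgeR adjusted p = 0.161). Sod2 was called without GK 9 (1.23, edgeR adjusted p = 0.0344) and without both libraries numbered 9 (0.98, 0.0135). Tissue factor (F3), which starts coagulation, was at 148 ± 39.2 CPM in controls and 124 ± 29.4 in GK.

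**Figure D5:**
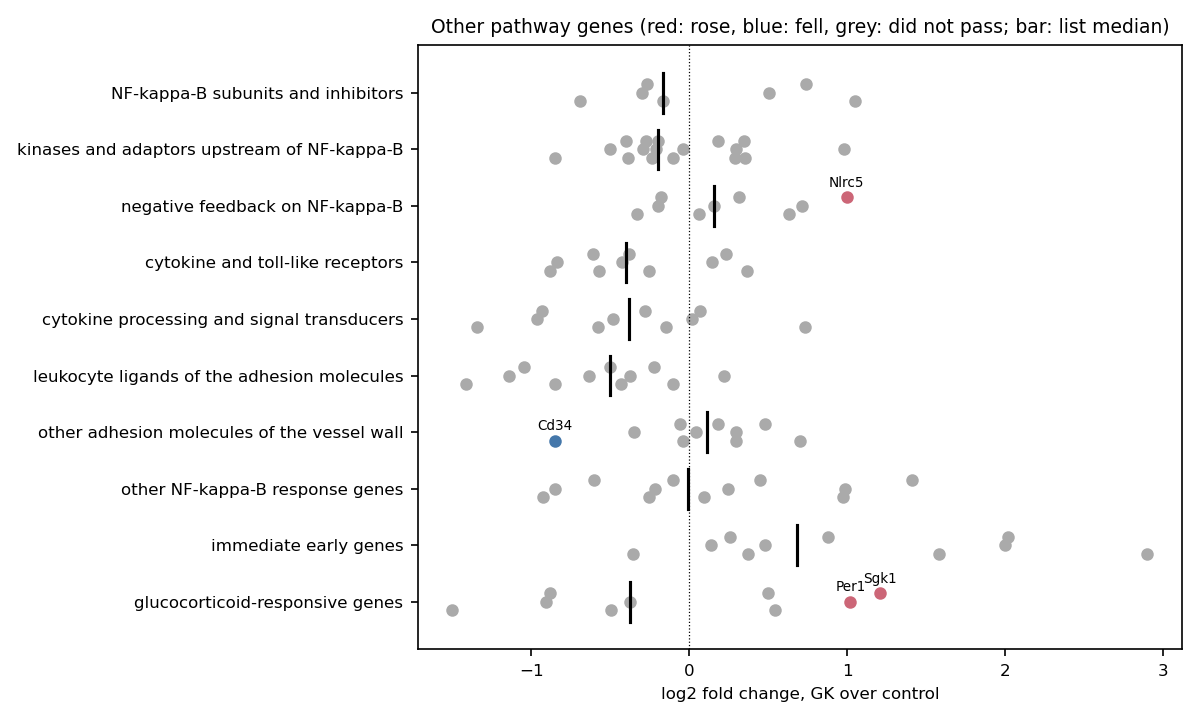
Log2 fold change (x axis, GK over control) of every tested gene in the 8 pathway lists and the lists of immediate early and glucocorticoid-responsive genes (y axis), with a black bar at each list's median. Nlrc5, Per1 and Sgk1 are the red points and Cd34 is the blue point, and all other genes are grey because they did not pass the test.

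Nfkbia also answers to other inputs than NF-kappa-B, and genes of those responses were listed beside it. Of 10 immediate early genes, which rise within minutes of many stimuli, 9 lay above 0 with a median log2 fold change of 0.68, and none passed edgeR's test (3 at an unadjusted p under 0.05, 1 by DESeq2). Jun had means of 201 ± 60.1 (control) and 157 ± 97.3 CPM (GK), and the phosphatase gene Dusp1 at 212 ± 175 and 275 ± 132. Of 9 glucocorticoid-responsive genes 2 rose and none fell by edgeR, 22.2% against 7.28% of all tested genes, with a list median of -0.37. At an unadjusted p under 0.05 there were 5 by edgeR, against 27.6% of all genes, and DESeq2 called 4, against 2489 of all 13673. The clock gene Per1 rose from 53.5 ± 9.61 to 109 ± 28 CPM (1.02 ± 0.20, edgeR adjusted p = 0.0268) and the kinase gene Sgk1 from 28.5 ± 8.70 to 65.9 ± 15.9 CPM (1.21 ± 0.26, edgeR adjusted p = 0.0340). Per1 lost its call without any one library other than control 8 and GK 9 (edgeR adjusted p from 0.0573 to 0.0935), and Sgk1 without control 8, control 10, GK 7, GK 8 or GK 10 (0.0699 to 0.0908). With library totals alone as scaling both lost it (0.111 and 0.0981). The other 3 glucocorticoid-responsive genes at an unadjusted p under 0.05, also named after their values were seen, lay lower in GK. Their log2 fold changes were -0.49 for Klf9, -0.88 for Fkbp5 and -1.5 for Mt1 (edgeR adjusted p of 0.0590, 0.0906 and 0.165).

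The genes whose log2 CPM followed that of Nfkbia most closely over the 8 libraries were Tmem80, Slc25a25, Abcf2, Med9 and Dph1, with Pearson r from 0.957 to 0.996. Slc25a25, a mitochondrial carrier of ATP-magnesium and phosphate, rose (1.20, edgeR adjusted p = 0.0312), and the other 4 did not pass the test. Since Nfkbia itself was higher in every GK library, genes that separated the groups in that direction tend to rank high in this order.

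The authors' own pathway annotation was also read. In their deposited annotation 9 of the 10 names belong to the KEGG TNF signaling pathway, 7 to NF-kappa B signaling and 4 to cell adhesion molecules. By edgeR here, 1 of 91 tested TNF pathway genes rose and 2 fell, 3 of 75 NF-kappa B pathway genes rose and 3 fell, and 5 of 110 cell adhesion genes rose and 8 fell, which is 3.30%, 8.00% and 11.8% called against 7.28% of all genes. The authors' deposited table of pathway enrichment gave q-values of 1 for the TNF and NF-kappa B pathways and 0.0976 for cell adhesion molecules. The KEGG AGE-RAGE pathway in diabetic complications holds 8 of the names, and 2 of its 90 tested genes rose and 8 fell by edgeR here (11.1%), with a q-value of 0.0896 in the authors' deposited table. For cell adhesion molecules that table called 5 genes higher and 10 lower, without any of Vcam1, Icam1, Sele and Selp among them.

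Long non-coding RNAs gave no call near these genes. None of the 17441 pairs in the authors' deposited prediction of lncRNA targets named a member. In the table of 24300 lncRNA transcripts, 8 lay within 10 kb of or inside 4 of the genes, and the 5 with enough counts had adjusted p of 0.0855 or more by edgeR, where 2.74% of tested lncRNAs were called. The nearest to a call was NONRATT003459.2 beside Rela (chromosome 1, 221007208 to 221008205), with 10, 5, 8 and 11 counts in controls 7 to 10 and 18, 20, 16 and 12 in the GK libraries (log2 fold change 1.0 ± 0.26, edgeR adjusted p = 0.0855), a transcript chosen after its values were seen.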

How the data were processed

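RNA of 8 thoracic aorta samples was sequenced. The authors deposited raw counts and FPKM per gene, lncRNA counts, and their own log2 fold changes, p-values and q-values, per the file headers, which name edgeR without a version. The submitters' processing notes list Bowtie 0.12.2 and mouse builds with no role; aligner settings, counting, strand and the build of the coordinates are not given in the sources used here. Groups came from the labels (the source name reads GK for every sample, controls included, and was not used). Deposited counts were tested with edgeR 4.0.16 in R 4.3.3 (filterByExpr with a minimum count of 10, TMM factors, quasi-likelihood F test, GK against control, Benjamini-Hochberg over all 13673 tested genes), and a gene was called at an adjusted p under 0.05. Standard errors (SE) were obtained by dividing each log2 fold change by the square root of its F value. Ratios to endothelial marker counts carried a pseudocount of 0.5 on the counts before the log2. The script recovered known fold changes on simulated data. There every gene had the same dispersion (spread beyond counting error) and the changed genes were well counted. That check does not measure power at the spread of these libraries. DESeq2 1.42.0, other scalings, no filter, a replicate block and leaving out each library were alternatives. Same-numbered libraries deviated together with r of 0.44, 0.11, 0.56 and 0.00. The labels do not say that the numbers pair the libraries, and these values do not settle it. Named genes were all members, up to 3 called genes per list or, with none called, the 2 with the highest mean CPM, and the 5 genes most like Nfkbia; the members and lists were chosen with earlier results of these data known. Of 200 list names 193 were found, 2 of them by synonym. Intervals on counts cover counting error only.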

Additional observations from a re-analysis of the deposited data

Results flagged for a closer look

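In 4 of 65 groups of 4 libraries examined, 1 library stood far from the rest by Dixon's test, which chance does in about 1 in 20 groups. Sele was at 2.80 CPM in control 10, with the next control at 1.14. Rela was at 73.0 CPM in control 7, with the next at 85.6. In GK 9, the library with skeletal muscle RNA, Glg1 was at 238 CPM, with the next GK library at 167, and Sod2 was at 204 CPM, with the next at 529. Il6 was at 0.136 CPM (2 counts) in control 10 and 0 in the other controls, and was not counted among the 65 groups, since 3 libraries at 0 meet that test whatever the value above 0 in the other.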

How the results depend on the processing

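The count of called members, 1 as reported, was 0 with library totals alone, with no filter and without both libraries numbered 9, and 0 to 1 when single libraries were left out. Genes called over the whole table, 995 as reported, numbered 473 with library totals alone, 654 with no filter, 2489 by DESeq2, 2372 with the replicate block, 2534 without both libraries numbered 9, and 135 (without control 10) to 3046 (without GK 9) when single libraries were left out. Pathway list genes called, 2 as reported, numbered 0, 1, 10, 10 and 16 under the same 5 settings in that order, and 0 to 20 when single libraries were left out. Library totals alone moved the median log2 fold change of all genes to -0.16. With the replicate block Nfkbia had 0.73 and an adjusted p of 0.0153 and Sod2 0.97 and 0.0117 (edgeR). With library totals alone the log2 fold change turned sign for Nfkb1 (-0.082), Jak1 (-0.093) and Stat3 (-0.145). Leaving out single libraries gave -0.391 to 0.083 for Icam1, -0.028 to 0.395 for Il1b, -0.108 to 0.008 for Tab2, -0.001 to 0.112 for Jak1 and -0.064 to 0.093 for Stat3. The cause was not tested. Counts under about 40 per library limit Sele, Il1b, Tnf and Il6.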
